A study of Rattus norvegicus with 9 samples.

Results

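The genes described here are 10 parts of the machinery that folds proteins in the endoplasmic reticulum (ER) and that answers when folding fails. They are the sensors Atf6 and Ern1, the transcription factors Xbp1 and Ddit3, the chaperones Hspa5, Hsp90b1, Calr and Dnajb9, the disulfide-forming enzyme Pdia4, and Herpud1, a component of ER-associated degradation. They were taken by gene symbol from the deposited count and RPKM tables (RPKM, read counts scaled to library size and to gene length). All 10 were found among the 28935 rows of the count table, and all 10 were among the 14151 genes with enough counts to test. The cells were primary ventricular myocytes from Sprague-Dawley rats aged 1 to 2 days, kept for 48 h in medium with 3% serum. Each well then received 8 µL of adenovirus in 1 mL of serum-free medium, and RNA was collected 48 h later. One group carried an adenovirus for Nfya, one carried an adenovirus for Nfe2l1, and the negative control carried an adenovirus for GFP (green fluorescent protein), with 3 libraries per virus and 9 in all. All groups, the control included, were therefore infected and without serum for the same time. The species of the Nfya and Nfe2l1 inserts is not given in the labels. Separate cultures are not stated for the 3 libraries of a virus, so p-values reflect the spread among libraries alone, and that spread may be technical.

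Proteins that are secreted or held in membranes are folded in the ER. When unfolded proteins build up there, the chaperone BiP, the product of Hspa5, leaves the sensors IRE1, PERK and ATF6, and these start the unfolded protein response. IRE1, the product of Ern1, splices the mRNA of Xbp1, ATF6 is cut to release a transcription factor, and PERK slows translation and raises ATF4 and then CHOP, the product of Ddit3. In heart muscle cells the ER is continuous with the sarcoplasmic reticulum, and calreticulin, the product of Calr, binds calcium there. NFYA is a subunit of NF-Y, which binds CCAAT boxes. ATF6 acts together with NF-Y at a composite site, the ER stress element. NFE2L1 is itself an ER-anchored transcription factor, which is extracted from the ER and cut before it enters the nucleus.

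Because NF-Y and the ER stress element meet in these promoters, the 250 bases before each gene start were read from the RefSeq promoter table (rat build GRCr8), which had an entry for 8 of the 10 genes and was matched by symbol. Every match of CCAAT was sought on both strands, as was the ER stress element, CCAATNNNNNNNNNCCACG, in which N is any base. The ER stress element was present in 4 of the 8 promoters, those of Hspa5, Hsp90b1, Xbp1 and Calr, with 2 matches in Hsp90b1. Of all 27457 promoters in the table, 21 held it (0.0765%). A second form, ATTGG and CCACG with any 1 base between them, stood only in the promoter of Herpud1 among the 8, and in 12 of all promoters (0.0437%). CCAAT alone was present in 8 of 8 promoters, against 34.3% of all promoters. With any base allowed before its last G, the ER stress element stood in the same 4 promoters and in 0.317% of all. Each of these longer elements contains a CCAAT. The matches are given 5′ to 3′ on the strand of the match, with the fixed letters in capitals and positions counted from the gene start.
Hspa5, -43 to -25, plus strand: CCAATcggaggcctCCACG
Hsp90b1, -176 to -158, plus strand: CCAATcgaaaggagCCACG
Hsp90b1, -72 to -54, minus strand: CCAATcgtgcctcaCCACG
Xbp1, -65 to -47, plus strand: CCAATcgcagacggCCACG
Calr, -232 to -214, minus strand: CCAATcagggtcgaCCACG
Herpud1, -124 to -114, plus strand: ATTGGgCCACG

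The whole promoters of 4 genes are given as well, each 5′ to 3′ on the strand of its gene. The promoter of Hspa5 is shown because it holds 4 CCAAT boxes and the element, and that of Herpud1 because it holds the second form. Those of Ddit3 and Dnajb9 are shown because they hold 1 CCAAT box each and no exact match of either element. Capitals mark CCAAT on either strand (ATTGG where it lies on the other strand) and the fixed letters of the elements.
Hspa5, chr3:38452766-38453015, plus strand: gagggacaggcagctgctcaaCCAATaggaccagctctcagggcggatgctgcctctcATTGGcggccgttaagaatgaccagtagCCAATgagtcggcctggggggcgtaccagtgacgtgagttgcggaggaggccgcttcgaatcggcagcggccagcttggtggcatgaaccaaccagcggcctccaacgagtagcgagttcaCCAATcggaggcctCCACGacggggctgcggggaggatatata
Ddit3, chr7:65001445-65001694, plus strand: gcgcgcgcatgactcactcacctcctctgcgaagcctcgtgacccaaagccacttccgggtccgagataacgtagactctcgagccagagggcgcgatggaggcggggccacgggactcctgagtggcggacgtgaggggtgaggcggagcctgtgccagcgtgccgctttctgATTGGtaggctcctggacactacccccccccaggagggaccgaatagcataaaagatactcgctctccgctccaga
Dnajb9, chr6:67002052-67002301, minus strand: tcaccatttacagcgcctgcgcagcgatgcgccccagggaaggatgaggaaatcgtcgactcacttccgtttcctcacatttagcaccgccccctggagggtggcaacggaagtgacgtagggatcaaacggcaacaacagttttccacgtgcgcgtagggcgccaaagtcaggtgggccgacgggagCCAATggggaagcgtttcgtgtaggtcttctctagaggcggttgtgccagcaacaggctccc
Herpud1, chr19:10614708-10614957, minus strand: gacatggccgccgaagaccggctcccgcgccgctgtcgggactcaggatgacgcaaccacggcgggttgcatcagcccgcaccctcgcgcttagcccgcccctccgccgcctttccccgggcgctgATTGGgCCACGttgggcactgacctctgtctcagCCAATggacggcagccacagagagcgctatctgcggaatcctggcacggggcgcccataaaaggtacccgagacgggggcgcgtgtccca

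**Figure D1:**
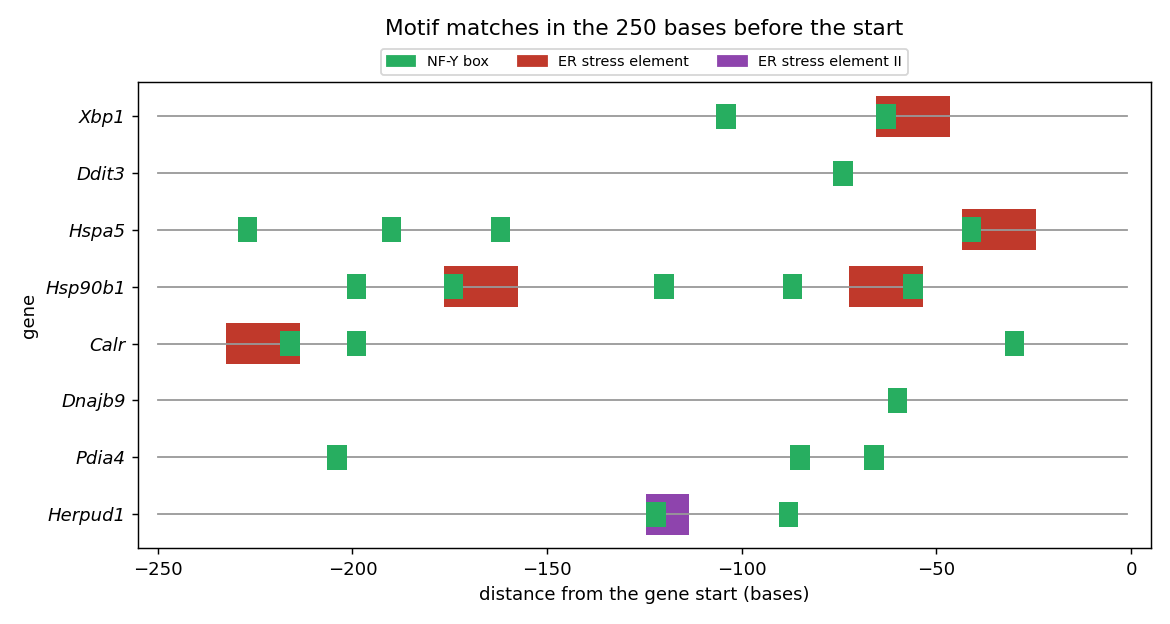
Matches of the NF-Y box (CCAAT, either strand), the ER stress element and its second form in the 250 bases before the start of 8 genes; the horizontal axis is the distance from the start in bases. Xbp1, Hspa5, Hsp90b1 and Calr hold the ER stress element and Herpud1 the second form. Among these exact strings, Ddit3, Dnajb9 and Pdia4 hold only CCAAT boxes.

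Other letters tied to these pathways were not found in the same windows. TGACGTGG, bound by XBP1 and ATF6, was in 0 of the 8 promoters and in 0.55% of all. The C/EBP-ATF element TGATGNAAT was in 0 of 8, against 0.929% of all, and the antioxidant response element TGACNNNGC, read by cap'n'collar factors, in 0 of 8, against 10.2% of all. A match is a string of letters and does not show that a factor was bound. A site that departs from the letters sought would be missed.

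Library totals ranged from 5712123 to 7310774 counts. The transcripts named in the labels were only weakly different or not different between groups. Nfya averaged 89.0 ± 0.683 CPM in Nfya libraries and 92.3 ± 2.20 CPM in Nfe2l1 libraries, against 80.4 ± 2.19 CPM in GFP libraries. Nfe2l1 averaged 239 ± 6.14 CPM in Nfe2l1 and 223 ± 4.79 CPM in Nfya libraries, against 241 ± 6.09 CPM in GFP libraries (SD, n = 3 each). In Nfya against GFP, Nfe2l1 was called lower by edgeR's quasi-likelihood test (adjusted p = 0.00784), but not under 6 of 21 alternative settings. The names Nfya and Nfe2l1 below are therefore those of the labels. Below, 'both viruses', 'either virus' and 'the viruses' mean those for Nfya and Nfe2l1. Cardiac muscle markers were abundant in every library, and none of the 9 was at 0: their summed level was 3324 to 3376 CPM in Nfya, 2998 to 3309 CPM in Nfe2l1 and 3107 to 3447 CPM in GFP libraries. Fibroblast markers (9 genes, none at 0) summed to 1699 to 1725 CPM in Nfya and 1454 to 1571 CPM in Nfe2l1 libraries, against 957 to 1015 CPM in GFP libraries. Endothelial markers (6 genes) summed to 363 to 381 CPM in Nfya and 404 to 423 CPM in Nfe2l1, against 284 to 297 CPM in GFP libraries, and smooth muscle and pericyte markers (7 genes) to 1054 to 1073 CPM and 740.1 to 762 CPM, against 967 to 979 CPM. Macrophage and leukocyte markers (7 genes) summed to 62.6 to 74.2 CPM in Nfya and 79.6 to 87.5 CPM in Nfe2l1, against 48.1 to 62.7 CPM in GFP libraries, and epicardial and mesothelial markers (7 genes) to 135 to 156 CPM and 153 to 172 CPM, against 121 to 128 CPM. No marker of any list was at 0 in a whole group.

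Per unit of gene length, the chaperones Calr, Hspa5 and Hsp90b1 were by far the most abundant of the 10 genes and the sensor Ern1 the least, in every group. Calr averaged 134 ± 0.185 RPKM in Nfya, 127 ± 5.68 RPKM in Nfe2l1 and 131 ± 5.44 RPKM in GFP libraries (SD, n = 3 each, also below). Hspa5, the main Hsp70 chaperone of the ER, averaged 127 ± 1.00, 126 ± 6.77 and 127 ± 7.96 RPKM in Nfya, Nfe2l1 and GFP libraries. Hsp90b1, the Hsp90 of the ER, averaged 111 ± 0.716, 111 ± 5.59 and 112 ± 5.51 RPKM in the same groups. These 3 chaperones stood above 99.2% to 99.8% of the genes of the RPKM table in the 3 groups, and Calr and Hspa5 overlapped in Nfe2l1 and in GFP libraries but not in Nfya libraries. In GFP libraries the order below them was Herpud1 (76.5 RPKM), Xbp1 (65.2), Pdia4 (62.0), Atf6 (45.9), Dnajb9 (45.7), Ddit3 (37.6) and Ern1 (15.5), and only Atf6 and Dnajb9 had overlapping libraries among neighbours in that order. The order changed with the virus. In Nfya libraries Pdia4 (71.7 RPKM) passed Xbp1 (62.7) and overlapped with Herpud1 (73.2), and Ddit3 (46.0) stood above Atf6 (41.8) and Dnajb9 (36.1). In Nfe2l1 libraries Pdia4 (70.8) followed the 3 chaperones, Herpud1 (60.5) overlapped with Xbp1 (60.2), and Atf6 (55.1) stood above Ddit3 (45.2) and Dnajb9 (42.7).

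With the virus for Nfya, the CHOP gene Ddit3 and the oxidoreductase Pdia4 were higher than in GFP libraries, and the sensors Ern1 and Atf6 and the co-chaperone Dnajb9 were lower. With the virus for Nfe2l1, Ddit3 and Pdia4 were higher by nearly the same amounts, Ern1 was lower, Atf6 was higher instead of lower, and Herpud1 rather than Dnajb9 passed the test among the genes that were lower. The 3 large chaperones Hspa5, Hsp90b1 and Calr, along with Xbp1, passed the test in neither comparison. No change was large: the largest was 0.42 on the log2 scale, for Atf6 between Nfya and Nfe2l1 libraries.

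In counts, 2 of the 10 genes rose and 3 fell in Nfya against GFP, at an adjusted p below 0.05 in edgeR's quasi-likelihood test. Over all genes tested in that comparison 52.2% were called, 24.3% higher and 27.9% lower. In Nfe2l1 against GFP, 3 rose and 2 fell, where 58.6% of all genes were called, 28.9% higher and 29.7% lower. Between Nfya and Nfe2l1, 1 was higher and 2 were lower, where 50.6% of all genes were called, 25.2% higher and 25.4% lower. The libraries did not overlap for 6 of the 10 genes in Nfya against GFP (61.6% of all genes), for 7 in Nfe2l1 against GFP (64% of all genes) and for 3 in Nfya against Nfe2l1 (60% of all genes). The shares of the 10 genes called against GFP were thus near those of all genes, and the shares between the viruses were below them. The median size of the log2 change over the 10 genes was 0.11, 0.15 and 0.05 in the comparisons as ordered above, and over all genes it was 0.20, 0.24 and 0.19. Both comparisons with GFP use the same GFP libraries. In bulk RNA, a smaller number of cells of a type and less RNA per cell cannot be told apart.

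**Figure D2:**
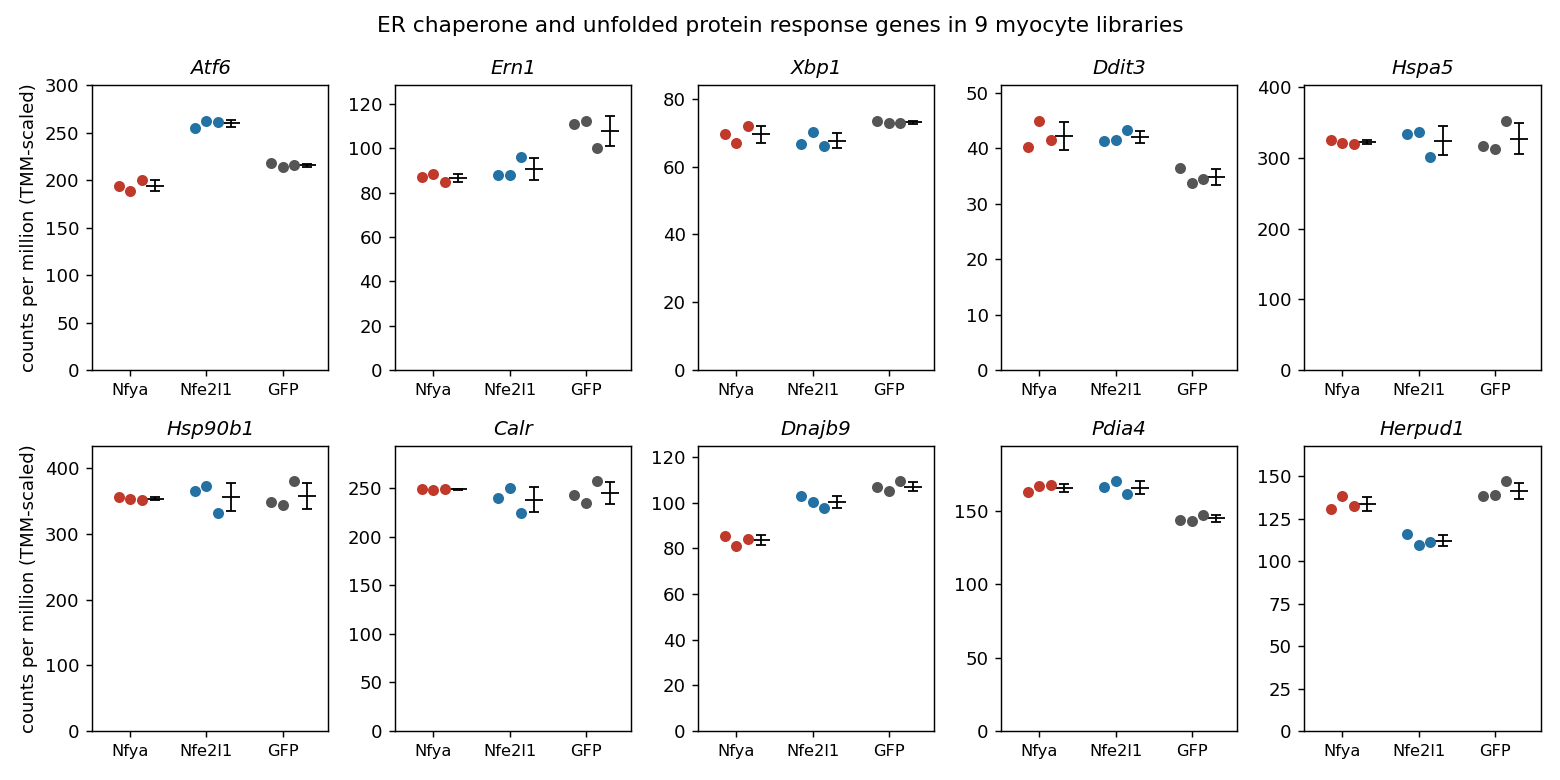
Level of each of the 10 genes in every library, in CPM (counts scaled to library size, by TMM) (vertical axis from 0), with Nfya, Nfe2l1 and GFP libraries from left to right; black bars give mean and SD of 3 libraries. Atf6 is higher in Nfe2l1 and lower in Nfya libraries than in GFP, Ddit3 and Pdia4 are higher under both viruses, and Hspa5, Hsp90b1 and Calr overlap between all groups.

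Among the sensors, Atf6 moved in opposite directions under the 2 viruses. It stood at 194, 188 and 200.3 CPM (counts scaled to library size by TMM) in the Nfya libraries, at 255, 263 and 261 CPM in the Nfe2l1 libraries and at 218, 214 and 216 CPM in the GFP libraries. The 3 groups did not overlap at any point. Atf6 was 0.900-fold in Nfya against GFP (log2 fold change -0.15 ± 0.03 SE, adjusted p = 5.88e-04) and 1.20-fold in Nfe2l1 against GFP (0.27 ± 0.03, adjusted p = 1.03e-06). The difference between the viruses, -0.42 ± 0.03 in Nfya against Nfe2l1, passed its own test (adjusted p = 9.75e-09). Its paralogue Atf6b, a related membrane-bound factor, was 1.15-fold higher in Nfe2l1 than in GFP libraries (adjusted p = 1.83e-04) and -0.04 on the log2 scale in Nfya libraries, short of the threshold (adjusted p = 0.452).

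Ern1, which encodes the kinase and ribonuclease IRE1α, was lower under both viruses. Its libraries held 86.9, 88.3 and 84.6 CPM with Nfya and 88.0, 87.8 and 96.3 CPM with Nfe2l1, against 111, 112 and 99.96 CPM with GFP. Every Nfya and Nfe2l1 library lay below every GFP library, and the lowest GFP value came from replicate 3, the shallowest library. Ern1 fell to 0.80-fold of GFP with Nfya (log2 -0.32 ± 0.05, adjusted p = 3.84e-05) and to 0.840-fold with Nfe2l1 (-0.25 ± 0.05, adjusted p = 2.81e-04). Nfya and Nfe2l1 libraries differed by -0.07 (95% interval -0.18 to 0.04), short of the threshold (adjusted p = 0.261).

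Xbp1, whose spliced product is the transcription factor made after IRE1 acts, had lower counts under both viruses without passing the test. It stood at 69.6, 66.9 and 72.0 CPM in Nfya, 66.7, 70.1 and 66.1 CPM in Nfe2l1 and 73.5, 72.7 and 72.9 CPM in GFP libraries. No Nfya or Nfe2l1 library reached the lowest GFP library. The log2 difference from GFP was -0.07 (95% interval -0.16 to 0.02, adjusted p = 0.277) for Nfya and -0.11 (-0.20 to -0.02, adjusted p = 0.0671) for Nfe2l1. For Nfe2l1 it was called without Nfe2l1 replicate 2, on the RPKM table and once a ceiling of counts per base was assumed. Gene counts pool the spliced and unspliced forms of Xbp1, so they carry no measure of IRE1 activity.

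Ddit3, the gene for CHOP, was higher under both viruses. It had 262, 296 and 278 counts in the Nfya libraries and 266, 265 and 317 in the Nfe2l1 libraries, against 238, 228 and 195 in the GFP libraries. Scaled, these were 40.2, 45.0 and 41.5 CPM with Nfya and 41.4, 41.5 and 43.2 CPM with Nfe2l1, against 36.5, 33.7 and 34.5 CPM with GFP. All 6 Nfya and Nfe2l1 libraries lay above all 3 GFP libraries. Ddit3 rose 1.21-fold in Nfya (log2 0.27 ± 0.06, adjusted p = 0.00103) and 1.21-fold in Nfe2l1 libraries (0.27 ± 0.06, adjusted p = 9.26e-04). The viruses differed by 0.00 on the log2 scale (95% interval -0.11 to 0.12, adjusted p = 0.972).

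Dnajb9 encodes ERdj4, a BiP co-chaperone of the ER that is a known target of XBP1. It stood at 85.5, 81.2 and 84.3 CPM in Nfya, 103, 100.3 and 97.8 CPM in Nfe2l1 and 107, 105 and 109 CPM in GFP libraries. The 3 groups lay in separate ranges. In Nfya libraries it fell to 0.782-fold of GFP (log2 -0.35 ± 0.04, adjusted p = 6.71e-07). In Nfe2l1 libraries the difference was -0.09 (95% interval -0.17 to -0.02) and did not pass (adjusted p = 0.0651), though it was called on the RPKM table and once a ceiling of counts per base was assumed. Nfya and Nfe2l1 libraries differed by -0.26 ± 0.04 (adjusted p = 1.97e-05).

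Herpud1 encodes a membrane protein that helps to assemble the complex which moves misfolded proteins out of the ER. It stood at 131, 138 and 132 CPM in Nfya, 116, 109 and 111 CPM in Nfe2l1 and 138, 139 and 147 CPM in GFP libraries. Nfe2l1 libraries lay below all others, while Nfya and GFP libraries overlapped. It fell to 0.794-fold in Nfe2l1 libraries (log2 -0.33 ± 0.04, adjusted p = 1.09e-06). With Nfya the difference from GFP was -0.08 and did not pass (adjusted p = 0.0885; it was 0.0464 without Nfya replicate 2). Herpud1 was 1.19-fold higher in Nfya than in Nfe2l1 libraries (0.25 ± 0.04, adjusted p = 2.65e-05).

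Pdia4 encodes ERp72, a protein disulfide isomerase. It stood at 163, 167 and 168 CPM with Nfya and 166, 170.2 and 161 CPM with Nfe2l1, against 144, 143 and 147 CPM with GFP. No Nfya or Nfe2l1 library reached down to a GFP library. Pdia4 rose 1.15-fold in each, by 0.20 ± 0.03 on the log2 scale with Nfya (adjusted p = 7.24e-05) and by 0.20 ± 0.03 with Nfe2l1 (adjusted p = 5.56e-05). The viruses differed by -0.00 (95% interval -0.06 to 0.06).

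**Figure D3:**
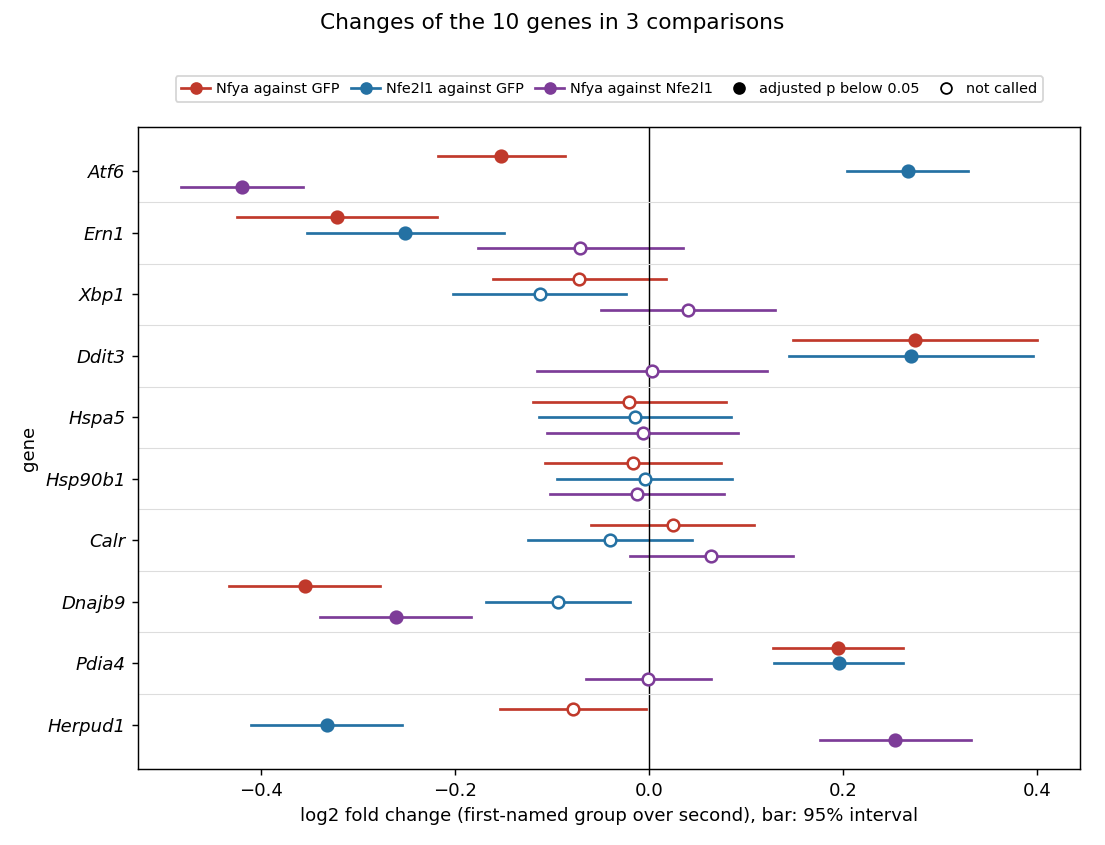
Log2 fold change of the 10 genes (first-named group over second) with its 95% interval, for each virus against GFP and for Nfya against Nfe2l1; filled points have an adjusted p below 0.05 and open points do not. Atf6 lies at -0.15 and 0.27 against GFP, Dnajb9 at -0.35 and -0.09, and Herpud1 at -0.08 and -0.33, for Nfya and Nfe2l1.

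The remaining 3 chaperones showed no called difference. Hspa5 stood at 325, 321 and 320.2 CPM in Nfya, 334, 337 and 301 CPM in Nfe2l1 and 317, 312 and 353 CPM in GFP libraries, and the 3 groups overlapped. Its log2 difference from GFP was -0.02 with Nfya (95% interval -0.12 to 0.08) and -0.01 with Nfe2l1 (-0.11 to 0.09). For Hsp90b1 the same differences were -0.02 (-0.11 to 0.07) and -0.00 (-0.09 to 0.09). Calr, the lectin chaperone, differed by 0.02 with Nfya (-0.06 to 0.11) and by -0.04 with Nfe2l1 (-0.12 to 0.04). Its Nfya libraries were nearly equal at 249, 249 and 249 CPM, while its Nfe2l1 libraries spanned 225 to 250.2 CPM and its GFP libraries 235 to 257 CPM.

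The spread of these 3 chaperones followed library depth within the groups. Their counts were dense along the gene: 0.83 counts per base of gene length for Hspa5, 0.73 for Hsp90b1 and 0.85 for Calr on average over the libraries, and only 0.327%, 0.814% and 0.240% of the genes in the RPKM table were denser. GFP replicate 2 held 1.19 times as many counts in total as GFP replicate 3, yet it held 2112 counts of Hspa5 against 1993, 2330 of Hsp90b1 against 2148 and 1588 of Calr against 1453. Scaled to depth, the shallower library was therefore higher by 0.18, 0.14 and 0.13 on the log2 scale for Hspa5, Hsp90b1 and Calr. In the Nfe2l1 group, replicate 2 was higher than the deeper replicate 3 by 0.17, 0.16 and 0.16. Ern1, at 0.0899 counts per base, went the other way, by -0.17 in GFP and -0.13 in Nfe2l1.

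Over all genes with a mean of at least 5 CPM, the same difference between the GFP libraries ran from a median of -0.15 below 0.05 counts per base to 0.16 at 0.7 counts per base and above. In that densest class of 156 genes, which holds Hspa5, Hsp90b1 and Calr, 13.5% of genes were called in Nfya against GFP, 25% in Nfe2l1 against GFP and 12.2% between the viruses, and the median size of the log2 change was 0.05, 0.07 and 0.06. In the sparsest class it was 0.48, 0.58 and 0.40. The part of coverage in the missing calls of the 3 chaperones was not tested. With an assumed ceiling of 1 count per base inverted (a choice made once the counts had been seen), Calr was 0.19 higher in Nfya than in GFP libraries (adjusted p = 5.85e-04) and 0.16 higher in Nfya than in Nfe2l1 libraries (adjusted p = 0.00279; also called there with upper quartile scaling), and Hspa5 was 0.10 higher in Nfe2l1 than in GFP libraries (adjusted p = 0.0267). That inversion left a within-GFP difference of 0.10 for Hspa5, 0.08 for Hsp90b1 and -0.03 for Calr.

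**Figure D4:**
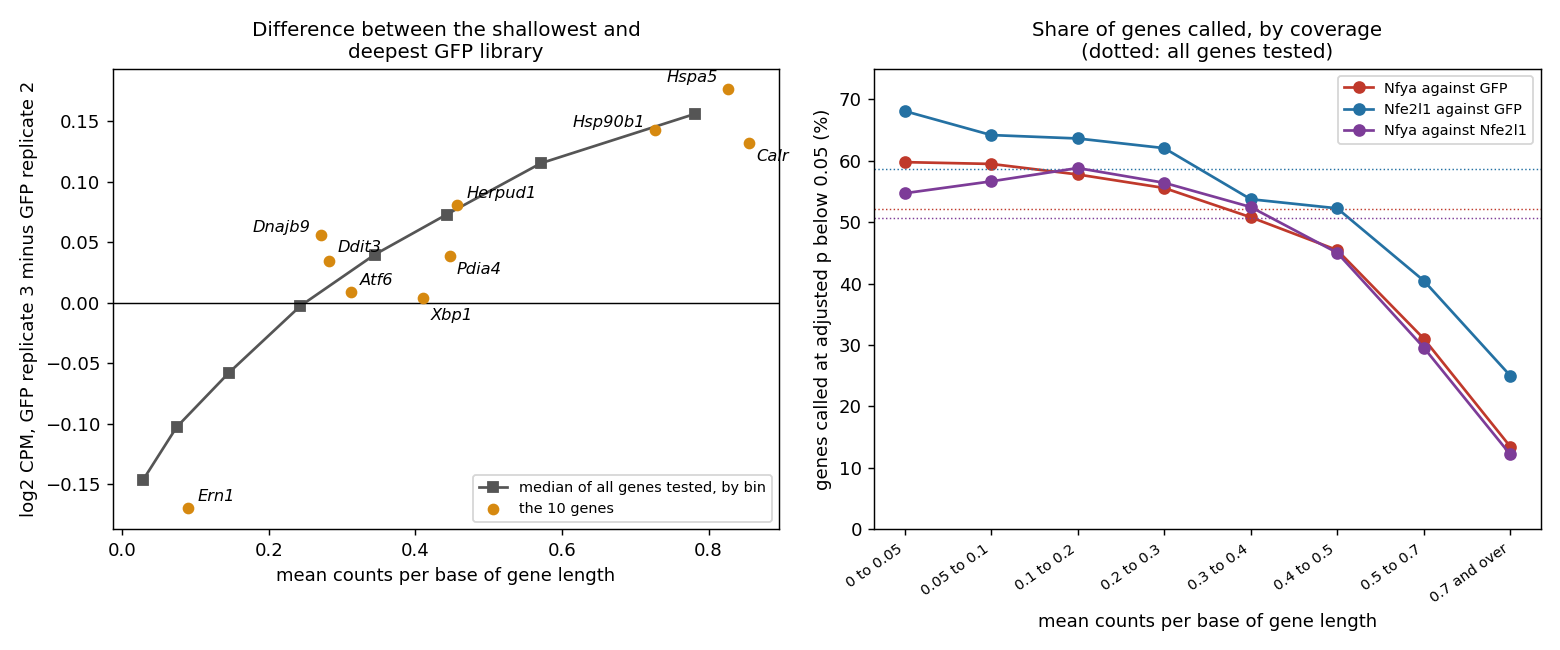
Left, log2 CPM of GFP replicate 3 minus replicate 2 against mean counts per base of gene length, for the 10 genes (points) and as medians of all genes with a mean of at least 5 CPM by class (squares); right, percent of genes called at an adjusted p below 0.05 by the same classes, with dotted lines for all genes tested. Hspa5, Hsp90b1 and Calr lie in the densest class, where the within-group difference is 0.16 and 13.5%, 25% and 12.2% of genes were called.

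The rest of the pathway was read from 6 lists with 86 tested genes, the 10 genes above included. Over all 86, 28 were higher and 18 lower in Nfya against GFP, 34 higher and 16 lower in Nfe2l1 against GFP, and 22 higher and 22 lower in Nfya against Nfe2l1. Over all genes tested, 24.3% were higher and 27.9% lower with Nfya, and 28.9% higher and 29.7% lower with Nfe2l1. In Nfya against Nfe2l1, 25.2% of all genes were higher and 25.4% lower. The 86 genes together were thus called about as often as genes at large. With DESeq2, 28 rather than 46 of the 86 were called in Nfya against GFP. The share of all genes called by DESeq2 is not given here. The median log2 change of the 86 was 0.02, 0.04 and -0.00 in these comparisons, and that of all genes -0.02, -0.01 and 0.01.

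Oxidative folding enzymes were mostly higher with Nfya. Of 15 tested, 11 rose and 0 fell in Nfya against GFP (list median 0.15), and 7 rose and 2 fell in Nfe2l1 against GFP (median 0.10). Of all genes, 24.3% rose and 27.9% fell with Nfya, and 28.9% rose and 29.7% fell with Nfe2l1. Pdia5, a protein disulfide isomerase, rose 2.33-fold with Nfya, at 12.0 ± 0.508 CPM in Nfya against 5.09 ± 0.428 CPM in GFP libraries (adjusted p = 1.15e-05). Txndc5, another disulfide isomerase, rose 1.27-fold with Nfya (adjusted p = 8.50e-07), and Prdx4, the peroxiredoxin of the ER, 1.29-fold (adjusted p = 3.99e-06). With Nfe2l1, Erp44, which retains client proteins in the early secretory pathway, rose 1.32-fold (adjusted p = 5.65e-07). Ero1a, the oxidase that recharges disulfide isomerases, fell to 0.805-fold with Nfe2l1 (adjusted p = 1.46e-06), and it was 1.22-fold higher in Nfya than in Nfe2l1 libraries (adjusted p = 4.23e-06).

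Among 15 sensors and transcription factors, 5 rose and 4 fell with Nfya and 9 rose and 2 fell with Nfe2l1. The shares of all genes, for this list and the markers below, were 24.3% higher and 27.9% lower with Nfya. With Nfe2l1 they were 28.9% higher and 29.7% lower. Creb3l1, an ER-anchored factor of the ATF6 type known for driving collagen secretion, changed most: 108 ± 2.52 CPM in Nfya and 90.3 ± 1.49 CPM in Nfe2l1, against 48.7 ± 0.670 CPM in GFP libraries. It was 2.22-fold (adjusted p = 1.93e-12) and 1.85-fold higher than GFP (adjusted p = 4.00e-11). Fibroblast markers moved with it: 8 of 9 were higher than GFP with either virus and 1 was lower with Nfya, at a median log2 change of 1.19 with Nfya and 0.90 with Nfe2l1. Higher as well were most endothelial markers (4 of 6 higher and 1 lower with either virus, medians 1.10 and 0.96), epicardial and mesothelial markers (5 of 7 higher and 2 lower with either, medians 1.25 and 1.18) and macrophage and leukocyte markers (4 of 5 higher and 1 lower with Nfya, 3 of 5 higher and 0 lower with Nfe2l1, medians 0.72 and 0.70). Of 6 smooth muscle and pericyte markers, 4 were higher and 1 lower with Nfya, and 1 higher and 3 lower with Nfe2l1 (medians 0.14 and -0.11). Of 9 cardiomyocyte markers, 2 were higher and 0 lower with Nfya, and 0 higher and 1 lower with Nfe2l1 (medians 0.03 and -0.06). The part of RNA from these cell types in the changes of Creb3l1 or of the 10 genes was not tested. Mbtps1, the protease that makes the first cut in ATF6, rose 1.11-fold with Nfya (adjusted p = 4.05e-04) and 1.13-fold with Nfe2l1 (adjusted p = 6.33e-05). Creb3 rose 1.24-fold with Nfe2l1 (adjusted p = 7.08e-06).

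No gene in the list of PERK and CHOP branch outputs, which holds neither Atf4 nor Ddit3, passed the test as higher. Of 7 tested genes, 0 were higher and 5 lower with Nfya and 0 higher and 6 lower with Nfe2l1, with list medians of -0.20 and -0.20, while Ddit3 itself rose under both viruses. Of all genes, 27.9% were lower with Nfya and 29.7% with Nfe2l1. On the log2 scale, Atf4 was at -0.13 with Nfya (adjusted p = 0.0207) and -0.23 with Nfe2l1 (adjusted p = 4.95e-04), called lower in both. Eif2ak3, the gene for PERK, was at -0.05 with Nfya (adjusted p = 0.409) and 0.15 higher with Nfe2l1 (adjusted p = 0.0126). Trib3, a pseudokinase induced by CHOP, had 30.2 ± 0.844 CPM in Nfya against 46.0 ± 3.43 CPM in GFP libraries and fell to 0.656-fold (adjusted p = 6.61e-07). With Nfe2l1 it fell to 0.789-fold (adjusted p = 1.29e-04). Ppp1r15a, the GADD34 subunit that reverses the PERK block on translation, fell to 0.803-fold with Nfya (adjusted p = 9.43e-07) and 0.903-fold with Nfe2l1 (adjusted p = 0.0011). Its constitutive relative Ppp1r15b fell to 0.898-fold with Nfya (adjusted p = 8.94e-04) and 0.843-fold with Nfe2l1 (adjusted p = 1.01e-05). Cebpg, a partner of ATF4, fell to 0.868-fold with Nfya (adjusted p = 2.78e-05) and 0.880-fold with Nfe2l1 (adjusted p = 5.81e-05). Sesn2, a stress-induced regulator of growth signalling, fell to 0.871-fold with Nfe2l1 (adjusted p = 7.39e-05). Tnfrsf10b, Bbc3 and Nupr1 of this list were not found by symbol among the genes counted.

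Of 19 chaperones and co-chaperones, 6 rose and 2 fell with Nfya and 5 rose and 3 fell with Nfe2l1, where 52.2% and 58.6% of all genes were called in either direction. Uggt1, which checks the fold of glycoproteins, rose 1.25-fold with Nfya (adjusted p = 6.29e-08), and Sil1, the nucleotide exchange factor of BiP, 1.25-fold (adjusted p = 4.03e-05). Both were also higher with Nfe2l1, Uggt1 1.13-fold (adjusted p = 2.39e-05) and Sil1 1.14-fold (adjusted p = 0.0132). Dnajc10, a co-chaperone with disulfide reductase activity, rose 1.23-fold with Nfya (adjusted p = 4.05e-07) and 1.15-fold with Nfe2l1 (adjusted p = 1.96e-05). Hspa13 rose 1.39-fold with Nfe2l1 (adjusted p = 3.12e-09) and was lower in Nfya than in Nfe2l1 libraries, at -0.40 on the log2 scale (adjusted p = 3.39e-08).

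In ER-associated degradation, where Herpud1 fell with Nfe2l1, it was the only one of 15 tested genes that did: 7 rose, and with Nfya 5 rose and 3 fell. Edem1, which delivers misfolded glycoproteins for degradation, rose 1.29-fold with Nfya (adjusted p = 3.65e-07) and 1.30-fold with Nfe2l1 (adjusted p = 1.31e-07). Sel1l, the adaptor of the HRD1 ubiquitin ligase with which HERPUD1 works, rose 1.27-fold (adjusted p = 2.75e-08) and 1.22-fold (adjusted p = 1.70e-07) in the same comparisons. Of 15 genes for translocation into the ER, 1 rose and 4 fell with Nfya, and 6 rose and 2 fell with Nfe2l1. Beside both lists, the shares over all genes were 24.3% higher and 27.9% lower with Nfya and 28.9% higher and 29.7% lower with Nfe2l1. Tram1, a protein of the translocation channel, was 1.16-fold higher with Nfe2l1 than with GFP (adjusted p = 1.10e-05), and lower in Nfya than in Nfe2l1 libraries, at -0.24 on the log2 scale (adjusted p = 4.05e-06).

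**Figure D5:**
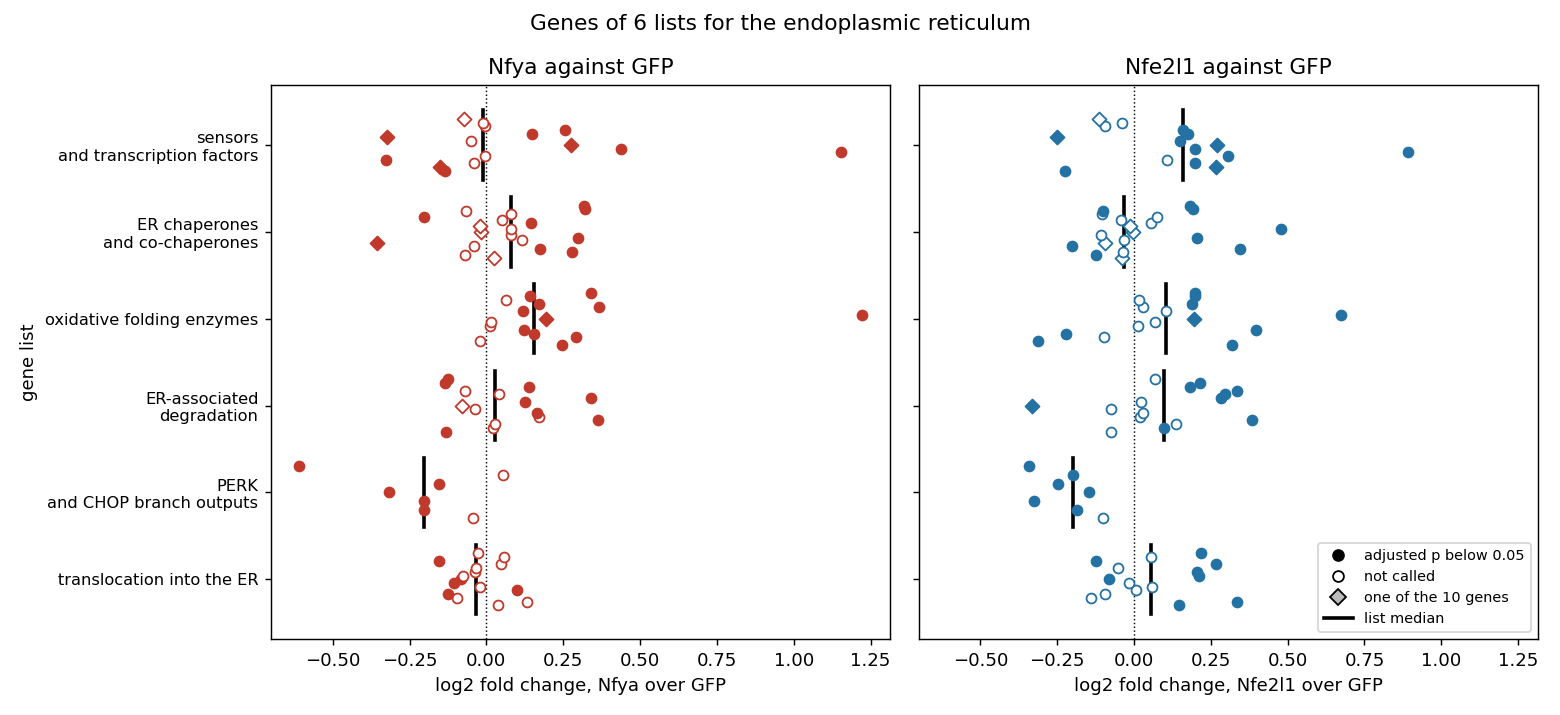
Log2 fold change against GFP of each tested gene in 6 lists, for Nfya (left) and Nfe2l1 (right) on a common axis; filled symbols have an adjusted p below 0.05, diamonds are the 10 genes and vertical bars are list medians. Oxidative folding enzymes lie mostly above 0 with Nfya (11 of 15 called higher, against 24.3% of all genes). Of the PERK and CHOP branch outputs, 5 of 7 were called lower with Nfya and 6 of 7 with Nfe2l1, against 27.9% and 29.7% of all genes.

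Set beside the promoter letters, none of the 4 genes with the ER stress element shown above (Hspa5, Hsp90b1, Xbp1, Calr) was called against GFP under either virus, and 3 of them lie in the densest coverage class. Over all genes tested, 15 held the element: 5 were higher and 2 lower in Nfya against GFP, and 3 were higher and 2 lower in Nfe2l1 against GFP. Of 10260 tested genes with a promoter, 24.9% were higher and 29% lower with Nfya, and 30% higher and 30.5% lower with Nfe2l1. Other pathway genes with the element were Creld2, 0.24 higher with Nfya and 0.32 higher with Nfe2l1 on the log2 scale (adjusted p = 3.56e-04 and 1.77e-05), and Ero1b, 0.29 higher with Nfya (adjusted p = 0.00166) and at -0.10 with Nfe2l1 (adjusted p = 0.341). Canx was at -0.07 with Nfya (adjusted p = 0.158) and 0.12 lower with Nfe2l1 (adjusted p = 0.0152), and Dnajc3 was at 0.08 and -0.11 (adjusted p = 0.168 and 0.0630). The second form was held by 8 tested genes, Herpud1 included: 3 were higher and 1 lower with Nfya, and 1 higher and 4 lower with Nfe2l1. With any base allowed before its last G, the ER stress element was held by 52 tested genes. Of these, 21.2% were higher and 38.5% lower with Nfya, and 19.2% higher and 30.8% lower with Nfe2l1. CCAAT alone was held by 3606 tested genes, of which 25.8% were higher and 27.2% lower with Nfya, close to the shares of all genes with a promoter.

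Across the 9 libraries, the genes whose log2 CPM ran most like that of Hspa5 were Erh (Pearson r = 0.99), Slc25a3 (0.98), Csnk1a1 (0.98), Cd81 (0.97) and Rbbp7 (0.97), out of 11931 genes searched. All 5 were densely covered too, at 0.51 to 0.85 counts per base on average. Whether their likeness to Hspa5 follows library depth was not tested. For Ddit3 they were Nckap1l (0.98), Trim72 (0.97), Wdpcp (0.97), Lhfpl2 (0.96) and Pdlim2 (0.96), at 0.0075 to 0.19 counts per base. These values describe 9 libraries that share groups and depth.

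The calls above were set beside the authors' deposited tables. For the 10 genes, the authors' deposited table for Nfya against GFP makes the same call in 10 of 10, with log2 values higher by 0.04 on average, which puts Hspa5 at 0.01 and Hsp90b1 at 0.02 there. The authors' deposited table for Nfe2l1 against GFP makes the same call in 10 of 10, with a largest difference of 5.48e-04.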

How the data were processed

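Gene counts were whole-number counts deposited by the authors. Stranded mRNA libraries were made from 9 samples, per the labels' protocols. Per the submitters' processing notes, edgeR 3.20.5, featureCounts 1.6.0 and FastQC 0.11.4 were used, with builds GRCm38, mm10 and rn6 listed without a role. Not given in the sources used here are the aligner, the annotation, the strand setting and how duplicate reads were handled. RPKM values and gene lengths were deposited by the authors, and a last line with no gene was left out. Per the file headers, the authors' edgeR tables hold log2 fold changes, a likelihood ratio score, p-values and FDR. The score was not used.

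The counts were fitted with edgeR 4.0.16 in R 4.3.3 (filterByExpr, TMM, quasi-likelihood F test, all 9 libraries in 1 fit, group the only term), with Benjamini-Hochberg adjustment over 14151 genes. CPM use the counts of the tested genes as library size, scaled by TMM. SE is the size of the log2 change divided by the root of its F value, and 95% intervals follow from it. For genes that vary less than counting error the interval can be narrower than the p implies. Alternatives used DESeq2 1.42.0 and limma 3.58.1 on log2(RPKM + 1), other scalings and filters, an assumed ceiling on counts per base and libraries left out. Motifs were matched in Python 3.11.15 in 250 bases before each start (RefSeq, GRCr8). The test was checked on simulated counts, with few genes changed and counts in proportion to depth. Dense coverage was therefore not part of that check.

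The 10 genes and the lists were chosen with earlier results of these data known. Named genes were the 10, up to 3 others per list and comparison with the smallest p among those called, the 5 most like Hspa5 and Ddit3, Nfya and Nfe2l1. Atf6b, Atf4 and Eif2ak3, and Creld2, Ero1b, Canx and Dnajc3 for their promoters, were named after their values were seen. Precision is limited by 3 libraries per group of 5712123 to 7310774 counts.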

Additional observations from a re-analysis of the deposited data

How the results depend on the processing

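Each of the 30 log2 changes of the 10 genes was recomputed under 21 alternatives. The direction of every called change was kept, and 614 values kept their side of the threshold. Another 15 passed it only under an alternative, for Xbp1, Dnajb9, Herpud1 and Calr. Hspa5 in Nfe2l1 against GFP changed sign and was called only with an assumed ceiling of 1 count per base inverted, at 0.10 (adjusted p = 0.0267). Among values called in neither fit, 69 changed sign, with a size of at most 0.07. Of the 10 genes, 5 were called in Nfya against GFP (5 to 6 with 1 library left out), 5 in Nfe2l1 against GFP (5 to 6) and 3 in Nfya against Nfe2l1 (3). With the ceiling of 1 count per base, 8 were called in Nfe2l1 against GFP. Of the pathway genes, 46 were called in Nfya against GFP, 28 with DESeq2 and 30 at an adjusted p below 0.01. The shares of all genes called under these settings are not given here, and the cause was not tested. With 1 library left out, 36 to 46 pathway genes were called in Nfya against GFP. The range was 47 to 51 in Nfe2l1 against GFP and 37 to 46 in Nfya against Nfe2l1. With the replicate number as a block, 5, 5 and 3 of the 10 genes were called. The labels do not tie the numbers across groups, and same-numbered libraries deviated together only at r = -0.07 to 0.05. The 24 genes above the ceiling of 1 count per base were left as deposited. Depth limits what can be seen of genes with few counts, and the part of dense coverage in the values of Hspa5, Hsp90b1 and Calr was not tested.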
